A study of Mus musculus with 19 samples.

Results

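A set of 1512 open chromatin regions was present in the peak lists of both fetal hematopoietic stem cells (HSC) and fetal lymphoid-primed multipotent progenitors (LMPP) and absent from both adult lists. They were chosen from 77133 regions, made by joining the distinct peaks of the 4 deposited lists wherever peaks shared at least 1 bp, and are called shared fetal regions here. They made up 1.96% of all regions, 5.25% of the 28818 regions with peaks of both fetal lists and 14.0% of the 10784 regions with fetal peaks only. Presence in the lists chose them, so their presence, and the strength of their peaks, are descriptions and were not tested. The series measured open chromatin (ATAC-seq, 2 libraries per group and 1 peak list per group) and RNA (11 libraries) to set fetal against adult cells of both kinds. All cells came from C57BL/6 mice with no other genotype or treatment named. Fetal cells were from the liver at E14.5 (embryonic days), and adult cells were from the bone marrow at 12 weeks. HSC were sorted as c-Kit+ Sca1+ CD48- CD150+ Flt3- and LMPP as c-Kit+ Sca1+ CD48+ CD150- Flt3+, both after removal of cells with CD3, Gr1, B220 or Ter119. The adult gates also removed CD11b+ cells, and the labels do not name CD11b for the fetal gates. RNA came from 2 fetal HSC, 3 fetal LMPP, 3 adult HSC and 3 adult LMPP libraries. Fetal liver against adult marrow is therefore a difference of organ, age and, possibly, gate at once, and these cannot be told apart. The series calls the replicates biological without saying that they came from separate animals or pools, so a p-value measures the spread between these libraries, which may be technical.

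Open chromatin marks promoters, where transcription starts, and distal elements such as enhancers, which can act on genes over long distances. HSC give rise to all blood lineages, and LMPP are an early progeny with lymphoid and myeloid output and little platelet or red cell output. In the fetal liver both cell types expand, under regulators such as Lin28b and its let-7 targets, among them the RNA-binding Igf2bp proteins, while most adult HSC are quiescent.

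RNA levels of Kit, Flt3 and Slamf1 went with the sorting labels, while peaks at the starts of sorting genes did so only in part. Kit, the c-Kit receptor, averaged 773 CPM (counts scaled to library size) in fetal HSC and 427 CPM in fetal LMPP, against 825 and 434 CPM in the adult cells of each kind, and had a peak at its start in all 4 lists. Flt3 averaged 492 CPM in fetal LMPP and 29.0 CPM in fetal HSC, and Slamf1, which encodes CD150, 0.241 CPM in fetal LMPP and 54.7 CPM in fetal HSC. The adult cells had 974 and 13.4 CPM of Flt3 and 0.481 and 70.9 CPM of Slamf1 in LMPP and HSC. The Slamf1 start had a peak in the adult LMPP list only, and the Cd48 start in all lists but fetal HSC. Ly6a, which encodes Sca1, averaged 30.5 and 19.3 CPM in fetal HSC and LMPP, against 97.5 and 66.9 CPM in adult HSC and LMPP. It had no peak at its start in any list.

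Promoter sequence was at hand for 114 of the 1512 regions, which overlapped 140 of the 32851 RefSeq promoter windows of 300 bases (250 before and 50 after a gene start, GRCm38.p6, the coordinates of mm10). The following 4 windows lie wholly inside a shared fetal region, and are shown because they carry the contrasts described below: Igf2bp3 and Fscn1, whose RNA was abundant in fetal LMPP, Gabra5, whose RNA was at 0 in every library, and 2410018L13Rik, whose region was among the strongest of the set. Each is written 5′ to 3′ on the strand of its gene, with the gene start after base 250, and capitals mark matches on either strand to 11 short motifs.
Igf2bp3 promoter, chr6:49214905-49215204, minus strand: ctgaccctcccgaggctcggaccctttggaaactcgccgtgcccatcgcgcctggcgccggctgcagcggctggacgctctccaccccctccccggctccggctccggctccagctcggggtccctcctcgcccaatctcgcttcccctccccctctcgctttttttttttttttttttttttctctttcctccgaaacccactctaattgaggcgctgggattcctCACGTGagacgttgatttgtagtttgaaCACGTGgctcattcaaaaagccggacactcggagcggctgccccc
Fscn1 promoter, chr5:142960105-142960404, plus strand: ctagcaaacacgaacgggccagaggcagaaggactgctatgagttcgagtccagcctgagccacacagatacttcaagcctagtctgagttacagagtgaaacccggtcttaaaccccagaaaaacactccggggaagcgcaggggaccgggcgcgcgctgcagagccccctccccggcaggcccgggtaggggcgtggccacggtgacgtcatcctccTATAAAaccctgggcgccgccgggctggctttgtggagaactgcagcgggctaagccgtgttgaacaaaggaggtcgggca
Gabra5 promoter, chr7:57510010-57510309, minus strand: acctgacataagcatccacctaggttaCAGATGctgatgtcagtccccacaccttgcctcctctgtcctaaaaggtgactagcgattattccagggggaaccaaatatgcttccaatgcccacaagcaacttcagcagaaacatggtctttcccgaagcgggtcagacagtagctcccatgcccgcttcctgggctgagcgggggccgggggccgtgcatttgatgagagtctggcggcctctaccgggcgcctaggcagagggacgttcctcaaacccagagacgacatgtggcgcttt
2410018L13Rik promoter, chr12:23010194-23010493, minus strand: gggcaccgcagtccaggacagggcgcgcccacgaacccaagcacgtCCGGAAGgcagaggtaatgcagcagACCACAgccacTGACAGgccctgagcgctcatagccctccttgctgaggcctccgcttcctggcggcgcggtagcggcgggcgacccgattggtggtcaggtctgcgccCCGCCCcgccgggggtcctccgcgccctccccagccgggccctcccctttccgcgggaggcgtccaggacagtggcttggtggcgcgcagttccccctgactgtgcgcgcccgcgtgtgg
GATA was searched as AGATAA, RUNX as TGTGGT, ETS as CCGGAAG, PU.1 as GAGGAAG, AP-1 as TGANTCA, the E-box as CANCTG, the MYC E-box as CACGTG, SP and KLF as GGGCGG, MEIS as TGACAG, SOX as ACAATNG and the TATA box as TATAAA. A base covered by several matches is capitalised once. The Igf2bp3 window held 2 CACGTG matches, a motif present in 7.15% of all promoter windows. The Fscn1 window held 1 TATAAA match (13.6% of all windows). The 2410018L13Rik window held 1 match each to the RUNX, ETS, SP and KLF, and MEIS motifs, and the Gabra5 window 1 E-box match. A match is a stretch of letters, not a measured binding site.

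Over the 140 windows inside or touching shared fetal regions, GGGCGG was found in 53.6%, against 35.9% of the 281 windows of regions shared by both adult lists only, 67.6% of the 11554 windows of regions in all 4 lists and 35.7% of all windows. GAGGAAG was found in 17.9% of the shared fetal windows, against 15.3%, 13.4% and 13.6% in the same order. TGTGGT was found in 7.86%, against 20.3%, 11.6% and 16.8%, and AGATAA in 2.86%, against 8.54%, 5.18% and 11.2%. The ETS letters CCGGAAG were in 7.14% of shared fetal windows, against 8.2%, 19.1% and 8.86% in the same order. Shared fetal promoters were also rich in CpG. A CpG ratio (observed over expected CpG) above 0.6 was seen in 79 of 140 windows (56.4%), against 33.1% of shared adult windows, 77.6% of all-list windows and 35.8% of all windows. The median GC content was 60.5%, against 55.0%, 62.0% and 52.7%. Motifs follow base composition, so these shares are descriptions only.

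**Figure D1:**
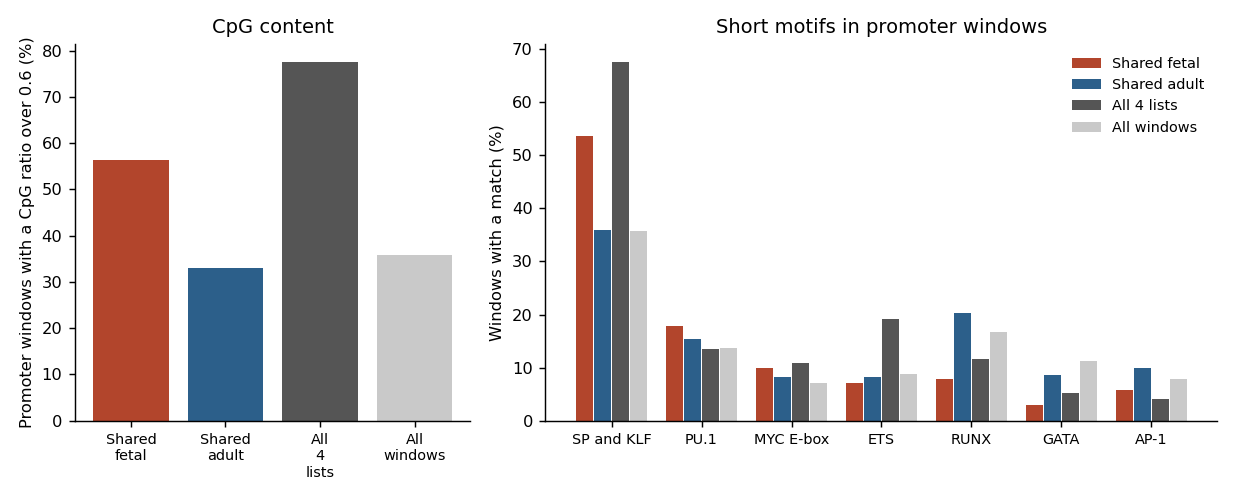
Promoter windows of 300 bases that overlap shared fetal regions, shared adult regions, regions of all 4 lists, and all RefSeq windows. The left panel gives the percentage with a CpG ratio above 0.6 (56.4% for shared fetal windows, 35.8% for all windows), and the right panel the percentage with a match to each short motif, where GGGCGG was in 53.6% of shared fetal windows and AGATAA in 2.86%.

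MicroRNA genes touched the set at few places. Of the miRNA hairpins in RefSeq, 4 lay within 2 kb of a shared fetal region. The Mir1955 hairpin lay inside the region chr2:92191928-92192183, and the Mir130a hairpin lay 1252 bp from the region chr2:84742431-84743218. Their mature sequences are shown with the seed, bases 2 to 8, in capitals.
mmu-miR-1955-5p: aGUCCCAGgaugcacugcagcuuuu
mmu-miR-130a-3p: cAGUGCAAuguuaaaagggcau
The seeds differ. The Mir1955 region had a signal value of 7.35 in the fetal HSC list and 3.23 in the fetal LMPP list, and the Mir130a region 5.10 and 2.73. Mature miRNAs were not measured by these libraries.

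Shared fetal regions were mostly modest peaks. The median signal value, the fold-like strength given by the authors' peak caller, was 6.47 in the fetal HSC list and 4.52 in the fetal LMPP list, at percentiles 37.5 and 29.2 of those lists. Regions of all 4 lists had medians of 10.2 and 6.54 in the same lists, at percentiles 71.5 and 63.2. Only 61 shared fetal regions (4.03%) were in the top 10% of the fetal HSC list and 28 (1.85%) in that of the fetal LMPP list. Regions shared by both adult lists only ranked in their own lists at median percentiles of 37.1 for adult HSC and 33.5 for adult LMPP. Scores below 540, the value at an irreproducibility rate (IDR) of 0.05, were held by 19.8% of the regions in the fetal HSC list and by 33.4% in the fetal LMPP list. The lists end at an IDR of 0.1.

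The rule required the fetal HSC and fetal LMPP peaks of a region to overlap, so their closeness is a description. It was not compared with that in other regions. Of the 1512 regions, 1497 were made of 1 peak of each list, and the 2 summits lay a median of 14 bp apart, within 50 bp in 1344 regions (88.9%). Signal values of the 2 lists correlated with a Spearman rho of 0.478 across the 1512 regions, which share their sequence and width. The percentile was higher in the fetal HSC list for 916 regions (60.6%). The median width was 516 bp, against 584 bp for shared adult regions and 936 bp for regions of all 4 lists.

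Members hold no adult peak by the rule, so some gap to one was set in advance. The nearest adult peak was a median of 18858.5 bp away. It lay within 100 bp of 11 regions, within 500 bp of 53 (3.51%) and within 5000 bp of 365 (24.1%). These gaps were not compared with those of other regions. The 11 just inside had median signal values of 5.49 and 4.14 in the fetal HSC and fetal LMPP lists. Just outside, 1 region of both fetal lists overlapped an adult peak by under 100 bp, with 5.74 and 5.13.

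The set was mostly distal. Only 134 regions (8.86%) lay within 1 kb of a gene start, against 7.45% of the 4322 shared adult regions, 43.2% of the 23657 regions of all 4 lists and 18.9% of all regions. Another 526 (34.8%) lay inside genes away from starts and 852 (56.3%) between genes, where shared adult regions had 45.4% and 47.1%. The median distance to the nearest start was 41.3 kb, against 27.8 kb for shared adult and 6.00 kb for all-list regions. Beyond 100 kb from any start were 496 regions (32.8%), against 16.4% of shared adult and 10.5% of all-list regions. No start within 500 kb was found for 98 regions (6.48%), against 1.02% and 0.829%. Chromosome X held 18 regions (1.19%), against 2.82% of shared adult and 2.61% of all regions.

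**Figure D2:**
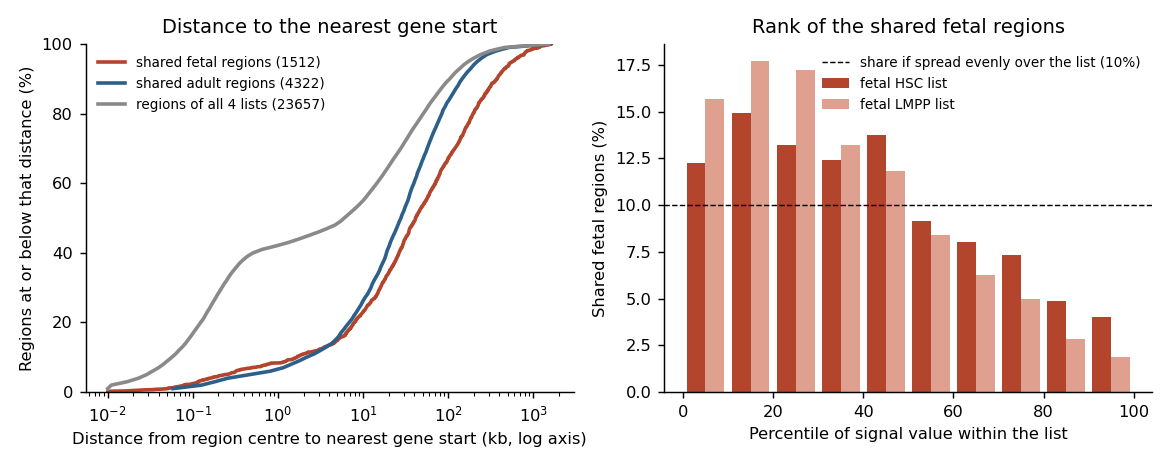
The left panel plots, on a log axis in kb, the cumulative percentage of regions by distance from the region centre to the nearest gene start, for shared fetal, shared adult and all-list regions; beyond about 10 kb the shared fetal curve lies lowest, with a median of 41.3 kb. The right panel gives the percentage of shared fetal regions in each 10% of the fetal HSC and fetal LMPP lists by signal value, with most below the middle (medians at percentiles 37.5 and 29.2).

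Regions were ranked by the lower of their 2 percentiles, and of the 10 strongest 6 lay over 100 kb from the nearest start. The first was chr6:79346209-79346939, with signal values of 28.3 in fetal HSC and 15.1 in fetal LMPP, 315 kb from the nearest start. Of the first 6 regions, 4 lay on chromosome 12 between 21783567 and 23190067. One of them covered the start of 2410018L13Rik (17.0 and 16.5), and its nearest adult peak was 1085845 bp away. The region centred 1.12 kb inside Itgbl1, an integrin-like gene, had 17.8 and 15.3, with Itgbl1 RNA at 0 in all libraries. The region at the start of 5730507C01Rik, another transcript on chromosome 12, had 15.0 and 8.86.

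Some members lay in groups. In windows of 1 Mb, 25 held 4 or more members, 120 in all (7.94%). The largest group, 13 members on chromosome 1 from 85075003 to 85864680, covered the Sp110, Sp140 and Sp100 genes, nuclear body proteins induced by interferon, with low median signal values of 3.29 and 3.07. A second, 10 members on chromosome 5 from 15040023 to 15644739, lay among the Speer4 genes. Both hold near-identical gene copies, so where a read belongs is uncertain there. In contrast, the 4 regions on chromosome 11 from 38058740 to 38748090 were all 4 of the regions found in that Mb, with medians of 9.57 and 5.01.

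RNA gave a measure that did not choose the regions. Gene totals ran from 19.8 to 64.8 M counts per library, and a count of 3, the limit that a count of 0 allows, was worth 0.0498 to 0.152 CPM; such limits cover counting error only. Libraries of a group correlated at 0.934 to 0.977. Fetal LMPP 1, adult HSC 3 and adult LMPP 3 stood apart on the third principal component (13.8% of the variance), with scores of 40.0, 56.2 and 13.6, where the other libraries lay between -43.3 and 5.0. Adult LMPP 3 lay near fetal HSC 1 (5.0) but far from adult LMPP 1 and 2 (-39.2 and -43.3). Counts of calls are also given without fetal LMPP 1, adult HSC 3 and adult LMPP 3, a choice made after seeing the data. In bulk RNA, fewer cells of a type and less RNA per cell cannot be told apart. Of markers of other cell types, the 11 erythroblast genes summed to 948 to 1070 CPM in fetal HSC and 134 to 428 in fetal LMPP, against 43.6 to 143 in adult HSC and 23.5 to 50.3 in adult LMPP. The 14 endothelial and stromal genes summed to 226 to 233 CPM in fetal HSC, against 72.6 to 99.1 in adult HSC, and overlapped in LMPP. The 9 neutrophil genes gave 17.3 to 39.0 CPM in fetal LMPP, against 2.73 to 4.51 in adult LMPP, and overlapped in HSC. T and NK cell genes (8) were lower in fetal cells, at 20.3 to 23.4 in HSC and 49.4 to 61.8 in LMPP, against 62.8 to 131 and 261 to 367 in the adult cells. The 11 macrophage genes gave 80.2 to 173 CPM in fetal LMPP, against 68.2 to 78.6 in adult LMPP, and overlapped in HSC. Genes of mast cells, basophils and eosinophils (10) gave 4.29 to 9.64 CPM in fetal LMPP, against 19.7 to 75.6 in adult LMPP, and overlapped in HSC. The 8 B cell genes overlapped in both. Marco of the macrophage list and Ebf1 of the B cell list were tied to a shared fetal region. None of the genes of the other lists named here was tied, and the part of all these lists in the results was not tested.

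In fetal LMPP, 13 genes that begin at a shared fetal region were higher and 6 lower, and 5 of the 13 were higher in fetal HSC too. There were 144 genes with a start within 1 kb of a member, of which 68 passed the filter on low counts. The LMPP calls, at an edgeR adjusted p under 0.05, made up 19.1% higher and 8.82% lower of the 68, where the shares over all 14720 genes tested were 7.08% and 8.29%. For HSC, 5 were higher and 2 lower (7.35% and 2.94%), where the figures over all genes were 2.07% and 2.89%. In both comparisons at once, 5 were higher and 2 lower, against 0.978% and 1.86% of all genes tested. Counted over all 144 genes, 9.03% were higher in fetal LMPP and 3.47% in fetal HSC, against 4.15% and 1.21% of all 25124 genes. The lower shares lay near the background and are no result about these genes. The median log2 fold change of the 68 was 0.42 in LMPP and 0.24 in HSC, against 0.00 for all genes tested in each. The difference in shares was not tested.

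Some of these counts depend on single libraries, and the shares over all genes fell with them. The 13 higher genes in LMPP became 7 without fetal LMPP 2, 7 without adult LMPP 2 and 8 without adult LMPP 1. These were 10.4%, 10.4% and 11.6% of the genes tested at starts, where the shares of all genes were 4.19%, 4.86% and 3.82%. The 6 lower genes became 3 without fetal LMPP 2, adult LMPP 1 or adult LMPP 3 (4.48%, 4.35% and 4.48%). The shares of all genes were then 5.09%, 5.84% and 6.83%. The 2 lower in HSC became 1 without fetal HSC 1 (1.39%) and 0 without fetal HSC 2, where 0.857% and 0.714% of all genes were lower. Without the 3 libraries that stand apart, 20 genes were higher in fetal LMPP and 11 in fetal HSC (30.3% and 16.7% of 66 tested), where 15.2% and 7.59% of all genes were.

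Of 236 tested genes at shared adult regions, fetal LMPP had 10 higher and 59 lower, and fetal HSC had 7 higher and 28 lower (2.97% and 11.9%). Genes at regions of all 4 lists had 7.22% higher and 6.95% lower in fetal LMPP. Among the 126 genes at shared fetal regions with no adult peak within 1 kb of a start, 55 were tested, of which 10 were higher and 4 lower in fetal LMPP. Of the other 18 genes, with an adult peak within that distance, 13 were tested and 3 were higher and 2 lower. In HSC the 55 held 5 higher genes and 2 lower ones, and the 13 held 0 of each. The 13 are few, and the split was not tested.

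**Figure D3:**
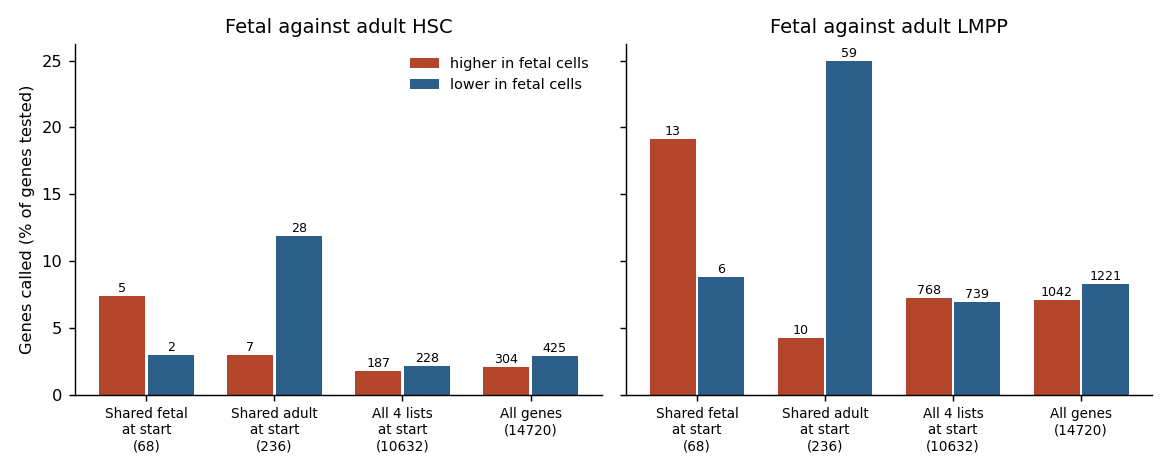
Percentage of tested genes called higher or lower in fetal cells at an edgeR adjusted p under 0.05, for genes with a shared fetal region, a shared adult region or a region of all 4 lists within 1 kb of their start, and for all genes, in HSC and LMPP. Numbers over bars are genes called and numbers in brackets genes tested; at shared fetal regions 13 of 68 were higher in fetal LMPP and 5 in fetal HSC.

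Igf2bp1 and Igf2bp3, which encode RNA-binding proteins of fetal growth, were higher in both fetal cell types. Igf2bp1 stood at 74.6 and 76.9 CPM in fetal HSC and at 81.8, 149 and 150 CPM in fetal LMPP, against 0 in all 6 adult libraries. It was thus at least 937-fold higher in fetal HSC and at least 1140-fold higher in fetal LMPP, at the floor of 3 counts per library (edgeR adjusted p = 0.000131 and 4.93e-05). Its start lay in the region chr11:96005498-96007861, which at 2364 bp was wide but of low signal, 4.63 and 2.91, and was the only region nearest to the gene. The nearest adult peak was 26861 bp away.

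Igf2bp3 had 81.2 and 79.5 CPM in fetal HSC and 214, 200 and 197 CPM in fetal LMPP, against 1.77, 1.43 and 3.19 CPM in adult HSC and 3.64, 1.85 and 2.72 CPM in adult LMPP. The groups do not overlap. The log2 fold change was 5.21 ± 0.35 (SE) in HSC and 6.23 ± 0.36 in LMPP (adjusted p = 3.56e-05 and 7.82e-06). The region at its start, chr6:49214619-49215859, holds the promoter printed above and had signal values of 6.24 and 3.42, at percentiles 34.5 and 6.33. A second member, 5.82 kb inside the gene, had 4.06 and 3.03 and lay 98 bp from an adult peak. Calls of both genes held in all 17 alternatives run on the counts.

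**Figure D4:**
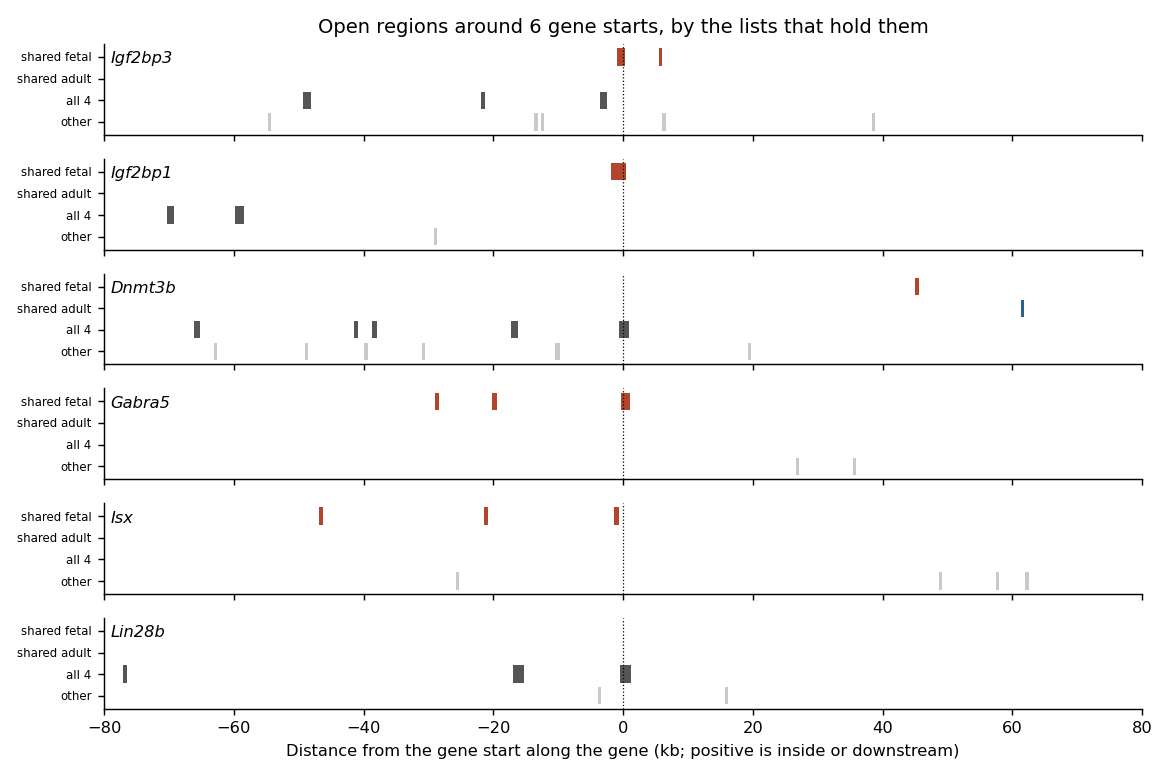
Open regions within 80 kb of 6 gene starts, by distance from the start along the gene in kb, one row for each class of lists; bars narrower than 0.5 kb are drawn 0.5 kb wide. Shared fetal regions lie at the starts of Igf2bp3, Igf2bp1, Gabra5 and Isx, 45.3 kb downstream of the Dnmt3b start, and at none of the places shown for Lin28b.

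Among the other genes higher in fetal cells with a member at their start, every called gene is named here. Fscn1, which encodes the actin-bundling fascin, had 74.4 and 87.1 CPM in fetal HSC and 30.8, 96.9 and 89.4 CPM in fetal LMPP, against 11.3, 15.4 and 2.19 CPM in adult HSC and 0.455, 1.32 and 0.0327 CPM in adult LMPP. In LMPP the log2 fold change was 6.85 ± 1.03 (adjusted p = 0.00188). The HSC difference, 3.07 ± 0.88, missed the threshold (adjusted p = 0.0783), and passed it without the 3 libraries that stand apart (0.000351) or without adult LMPP 3 alone (0.04). Its region had signal values of 5.67 and 4.52 and lay 49 bp from an adult LMPP peak, so the start is not without an adult peak.

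Gnasas1, an antisense transcript of the imprinted Gnas locus whose reads cannot be told by strand, had 6.37 and 3.56 CPM in fetal HSC and 6.16, 3.69 and 5.35 CPM in fetal LMPP, against 0.166 to 0.285 CPM in adult HSC and 0.131 to 0.455 CPM in adult LMPP (log2 4.39 ± 0.60 and 3.88 ± 0.56, adjusted p = 0.00197 and 0.00154). Its region was at percentiles 85.1 and 70.8 of the fetal HSC and fetal LMPP lists, with signal values of 13.045 and 7.21. Cysltr1, a leukotriene receptor, rose in fetal LMPP to 11.1, 10.9 and 12.6 CPM, against 0.202, 1.74 and 1.24 CPM in adult LMPP (log2 3.41 ± 0.65, adjusted p = 0.00666), and its region lay 132 bp from an adult peak. In HSC it averaged 1.52 and 0.671 CPM in fetal and adult cells (adjusted p = 0.401).

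The transcripts 2410018L13Rik and 5730507C01Rik were higher in both cell types. 2410018L13Rik had 6.29 and 6.05 CPM in fetal HSC and 2.34, 5.69 and 6.46 CPM in fetal LMPP, against 0.149 to 0.634 CPM in adult HSC and 0.655 to 1.35 CPM in adult LMPP (adjusted p = 0.0065 and 0.0341). Its LMPP call was lost without fetal HSC 1 or 2, fetal LMPP 2 or 3, or any adult LMPP library, at adjusted p between 0.0603 and 0.1. 5730507C01Rik averaged 5.64 ± 0.41 CPM in fetal HSC (SD, n = 2) and 2.68 ± 0.16 in fetal LMPP (n = 3), against 0.734 ± 0.25 and 0.924 ± 0.20 CPM in the adult cells (edgeR adjusted p = 0.00375 and 0.0304). It lost the HSC call without fetal HSC 2 (adjusted p = 0.0507). The LMPP call was lost without fetal HSC 1 or 2, any fetal LMPP library, or adult LMPP 1 or 2, at 0.0512 to 0.0974.

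Bax, which promotes cell death, rose in fetal LMPP to 125, 120 and 109 CPM, against 65.7, 73.8 and 82.7 CPM in adult LMPP (log2 0.67 ± 0.17, adjusted p = 0.0236). Gpatch4, a nucleolar protein, rose to 98.6, 94.0 and 77.2 CPM, against 44.6, 49.2 and 61.4 CPM (log2 0.80 ± 0.19, adjusted p = 0.0168). Without fetal LMPP 1 or 2 or adult LMPP 1 or 2 both lost the call, at adjusted p from 0.0647 to 0.0911 for Bax and from 0.0522 to 0.0706 for Gpatch4. Siglece, a sialic acid receptor of myeloid cells, rose to 6.20, 10.6 and 6.502 CPM in fetal LMPP, against 2.37, 2.60 and 1.34 CPM (log2 1.88 ± 0.44, adjusted p = 0.0163), and lost the call without fetal LMPP 2 (0.0758) or adult LMPP 3 (0.0506). 2610203C22Rik and Cald1, an actin-binding protein, had 0 in all adult LMPP libraries and were at least 14.4-fold and at least 5.70-fold higher in fetal LMPP (adjusted p = 0.00237 and 0.0203). Cald1 lost its call without fetal LMPP 2 (0.0613) or adult LMPP 2 (0.0535).

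Rbp4, the plasma carrier of retinol and a gene of hepatocytes, also rose in fetal LMPP. It had 3.84, 1.11 and 1.23 CPM in fetal LMPP, against 0 in all adult LMPP libraries, so it was at least 18.5-fold higher (adjusted p = 0.0249). The call was lost without fetal LMPP 1 (0.0568) or without any 1 of the adult LMPP libraries (0.054 to 0.0638). In fetal HSC it had 0.0786 and 3.51 CPM, against 0 to 0.133 CPM in adult HSC, which overlap, and passed with DESeq2 (0.0383). Hepatocyte RNA moved with it in part. Alb, the albumin gene, had 0.236 and 13.7 CPM in fetal HSC and 13.2, 0.887 and 4.42 CPM in fetal LMPP, against 0 in all adult libraries. Of the 16 hepatocyte markers 15 were tested, and fetal LMPP had 3 higher and 2 lower by edgeR. In HSC edgeR called 0, although 7 markers, Alb and Rbp4 among them, had an unadjusted p under 0.05, and DESeq2 called 5 in HSC and 8 in LMPP. Without the 3 libraries that stand apart, edgeR called 2 in HSC (Alb and Foxa3) and 3 in LMPP (Foxa3, Rbp4 and Trf). Not all of these calls went with Rbp4. Foxa3 averaged 2.14 and 0 CPM in fetal HSC and LMPP, against 11.2 and 0.666 CPM in adult HSC and LMPP. Foxa3 was also among the 7 markers in HSC and among the DESeq2 calls in both. Their sum was 66.1 to 155 CPM in fetal HSC and 91.1 to 197 CPM in fetal LMPP, against 72.3 to 103 and 259 to 307 CPM in adult HSC and adult LMPP. Trf, transferrin, made up most of the sum, with means of 64.8 CPM in fetal HSC and 78.6 CPM in fetal LMPP, against 49.3 CPM in adult HSC and 246 CPM in adult LMPP. Alb, Ttr, Fga and Fgb, secreted liver proteins, were at 0 in all adult libraries, and Cps1 was at 0 in every library. At the starts of these 16 genes, 5 had a fetal HSC peak and 4 a fetal LMPP peak, against 4 adult HSC and 6 adult LMPP peaks, and Alb and Afp had a peak in none of the lists. Rbp4 was the only marker with peaks in both fetal lists alone. The part of hepatocyte RNA in the result was not tested.

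Among genes with a member at their start, 6 fell in fetal LMPP, 2 of them also in fetal HSC. Tap2, a peptide transporter of antigen presentation, had 79.6 and 78.4 CPM in fetal HSC and 143, 127 and 105 CPM in fetal LMPP, against 212, 208 and 319 CPM in adult HSC and 343, 377 and 555 CPM in adult LMPP. It fell by 1.64 ± 0.27 in HSC and by 1.76 ± 0.23 in LMPP on the log2 scale (adjusted p = 0.00518 and 0.000892), although its start lay inside a 282 bp member (signal values 5.58 and 4.24). Its HSC call was lost without fetal HSC 1 (0.0654) or fetal HSC 2 (0.0808). Clcf1, a cytokine of the IL-6 family, had 3.23, 5.36 and 4.25 CPM in fetal LMPP, against 18.7, 20.2 and 17.4 CPM in adult LMPP (log2 -2.14 ± 0.28, adjusted p = 0.000885). In HSC it had 6.29 and 6.48 CPM, against 8.05, 12.0 and 7.84 CPM, with an adjusted p of 0.389.

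Tgif1, a transcriptional repressor, and Bcdin3d, an RNA methyltransferase, fell in fetal LMPP by 0.88 ± 0.23 and by 1.07 ± 0.31 (adjusted p = 0.0273 and 0.0437). Tmem238 fell in both, by 1.41 ± 0.29 in HSC and by 0.82 ± 0.25 in LMPP (adjusted p = 0.0184 and 0.0493), and 4933406C10Rik, at 0 in all fetal LMPP libraries against 0.152 to 0.295 CPM in adult LMPP, fell in LMPP (0.0168). Tgif1 lost it without fetal LMPP 2 or 3 or any adult LMPP library (0.051 to 0.0977). Bcdin3d lost it without any fetal library or without adult LMPP 1 or 3 (0.0699 to 0.125). Tmem238 lost the HSC call without fetal HSC 2 (0.234) and the LMPP call without any fetal library, adult HSC 1 or any adult LMPP library (0.0529 to 0.143). Without the 3 libraries that stand apart, the LMPP calls of 4933406C10Rik (0.0624) and Tmem238 (0.0543) were lost, and without a filter on low counts those of Tmem238 (0.064) and Bcdin3d (0.052).

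**Figure D5:**
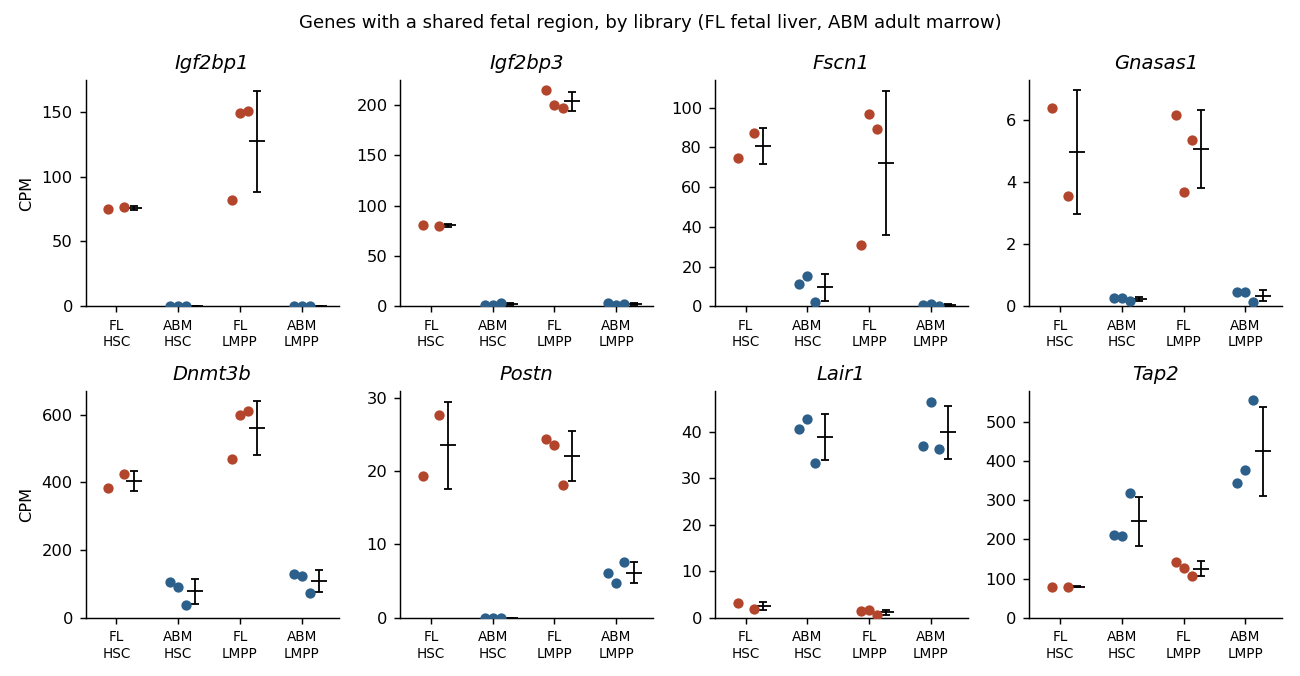
CPM in each library of 8 genes tied to shared fetal regions, in fetal liver (FL, red) and adult bone marrow (ABM, blue) HSC and LMPP, on linear axes from 0; black marks are mean ± SD. Igf2bp1, Igf2bp3, Fscn1, Gnasas1, Dnmt3b and Postn are higher in fetal cells, and Lair1 and Tap2 lower, with no overlap between fetal and adult libraries of a cell type. Lack of overlap was among the rules that named these genes, except for Fscn1.

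Many genes with a member at their start had little RNA. Of the 144, 84 (58.3%) stayed under 1 CPM in every library, against 44.5% of all genes, 35.0% of genes at shared adult regions and 10.3% of genes at all-list regions. RNA was at 0 in all 11 libraries for 55 (38.2%), against 29.9%, 16.5% and 3.52%. Among these 55, named after their values were seen, were subunits of inhibitory and excitatory neurotransmitter receptors (Gabra5, Glra2, Glra3 and Grik1), the dopamine receptor Drd2, the sodium leak channel Nalcn and Igfbp2, a binding protein of insulin-like growth factors. Other members lay at starts of genes with RNA at both ages: Eng, the TGF-beta co-receptor endoglin, had a member at an annotated start and averaged 129 and 42.3 CPM in fetal HSC and LMPP, against 123.0 and 51.4 CPM in adult HSC and LMPP (adjusted p = 0.962 and 0.713).

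Of the 8 genes nearest to 3 or more members, 6 were at 0 in every library, among them Gabra5, Cbln2 and Isx, and the other 3 are predicted or clone-named genes. The remaining pair, A530032D15Rik and C130026I21Rik, had 4 members each and lie in the group of near-identical copies on chromosome 1, so their counts are uncertain. A530032D15Rik, named after its values were seen, averaged 2.32 and 1.56 CPM in fetal HSC and LMPP, against 5.68 and 5.46 CPM in adult HSC and LMPP, and was lower in fetal LMPP (log2 -1.82 ± 0.36, adjusted p = 0.00826; 0.112 in HSC). C130026I21Rik did not pass (0.572 in HSC and 0.0779 in LMPP). Gabra5 had 3 members of its 5 nearest regions, at its start (signal values 6.79 and 6.02) and 19.8 kb and 28.7 kb upstream, of which the last was strong, with 17.7 and 9.68. Cbln2, a synaptic organiser, had 3 of 5, at its start, 61.7 kb upstream and 31.4 kb downstream. Isx, an intestinal homeobox factor, had 3 of 6, at 1.06, 21.1 and 46.6 kb upstream, and the first had 15.0 and 7.61. For Gabra5 and Isx no adult peak lay within 1 kb of the start, while the Cbln2 start had peaks of all 4 lists within that distance.

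Other genes with several members were expressed at both ages. Laptm5, a lysosomal protein of blood cells, averaged 638 and 982 CPM in fetal HSC and LMPP, against 656 and 1086 CPM in adult HSC and LMPP. Wdfy3, a selective autophagy adaptor, averaged 84.4 and 24.96 CPM, against 47.9 and 20.5 CPM. Neither passed the test, nor did Cdk6, a G1 cyclin-dependent kinase. Cdk6, with members 64.7 kb upstream and 19.7 kb inside, had 36.1 and 39.2 CPM in fetal HSC and 66.3, 111 and 98.7 CPM in fetal LMPP, against 102, 106 and 45.4 CPM in adult HSC and 206, 237 and 122 CPM in adult LMPP (adjusted p = 0.137 and 0.067). Its groups do not overlap, and without the 3 libraries that stand apart it fell by 1.48 in HSC and by 1.09 in LMPP on the log2 scale (8.97e-05 and 0.00033). Cdk6 also passed without adult HSC 3 alone (0.0267 in HSC and 0.0178 in LMPP) and, in LMPP, without adult LMPP 3 (0.0373) or with only the 2 groups compared (0.0427). With DESeq2 it passed in both (0.0383 and 0.0196).

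Most members lay away from starts and were tied to the nearest gene only by distance. The nearest start within 100 kb gave 949 genes, 503 of them tested. Of these, 58 rose and 44 fell in fetal LMPP (11.5% and 8.75%), against the 7.08% and 8.29% of all genes. In HSC 17 were higher and 15 lower (3.38% and 2.98%), against 2.07% and 2.89%. With the 3 outlying libraries left out there were 89 higher and 80 lower in LMPP (18.1% and 16.3%), where the shares of all genes were 15.2% and 15.3%. In HSC there were then 45 and 49 (9.15% and 9.96%), where those of all genes were 7.59% and 8.60%. Without fetal LMPP 1 and 2 the higher genes in LMPP numbered 36 and 31 (7.19% and 6.2%), with 4.66% and 4.19% of all genes. Without adult LMPP 1 and 2 they numbered 30 and 34 (5.96% and 6.8%), with 3.82% and 4.86% of all genes. In HSC there were 10 higher and 7 lower without fetal HSC 1 (1.898% and 1.33%, with 0.889% and 0.857% of all genes). Without fetal HSC 2 there were 8 and 5 (1.53% and 0.956%, with 0.681% and 0.714% of all genes). By distance from any member, genes with a start at 1 to 10 kb had 10.1% higher and 6.18% lower in fetal LMPP. Those at 10 to 50 kb had 6.89% and 11.7%, and those at 50 to 100 kb 7.01% and 7.24%. Of the 882 members away from starts whose nearest gene was within 100 kb, 382 (43.3%) were nearest to a gene with peaks of all 4 lists at its own start, 11 (1.25%) to one with fetal peaks only, and 348 (39.5%) to one with no peak there. For the 3292 such shared adult regions the shares were 55.7%, 0.273% and 27.0%.

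Of genes with a distal member, Dnmt3b, a de novo DNA methyltransferase, rose in both fetal cell types. It had 384 and 424 CPM in fetal HSC and 469, 601 and 612 CPM in fetal LMPP, against 105, 91.0 and 37.2 CPM in adult HSC and 130, 123.0 and 72.0 CPM in adult LMPP (log2 2.38 ± 0.38 and 2.37 ± 0.36, adjusted p = 0.00485 and 0.00189). Its start was open in all 4 lists, and its member lay 45.3 kb downstream of it. Postn, the matrix protein periostin, had 19.3 and 27.7 CPM in fetal HSC and 24.3, 23.6 and 18.1 CPM in fetal LMPP, against 0 in all adult HSC libraries and 6.16, 4.71 and 7.60 CPM in adult LMPP. It was at least 291-fold higher in fetal HSC (adjusted p = 2.67e-05) and higher by 1.84 ± 0.29 on the log2 scale in fetal LMPP (0.00436). Its member was centred 1.78 kb inside the gene, with signal values of 6.89 and 4.03, while its start had peaks of fetal HSC and adult HSC. That start is the one of the deposited gene table, and a RefSeq promoter window of Postn overlapped a shared fetal region. Of the 14 endothelial and stromal markers 8 were tested, of which 3 were higher and 1 lower in fetal HSC and 2 were higher in fetal LMPP, and none was at 0 in every library.

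Jam3, an adhesion molecule of stem cells and endothelium with a member 20.8 kb inside, averaged 72.4 and 23.7 CPM in fetal HSC and LMPP, against 25.5 and 1.52 CPM in adult HSC and LMPP (log2 1.51 ± 0.29 and 3.95 ± 0.30). Chil5, a chitinase-like protein, averaged 98.3 and 6.89 CPM, against 9.24 and 1.12 CPM. Olfm1, a secreted olfactomedin, averaged 5.19 and 20.4 CPM, against 0.557 and 2.51 CPM. All 3 passed in both comparisons. Leaving out libraries ended some of these calls. In HSC, Jam3 lost it without fetal HSC 1 (0.101), fetal HSC 2 (0.121) or adult HSC 1 (0.0528), Chil5 without fetal HSC 2 (0.083), and Olfm1 without fetal HSC 1 or 2 or adult HSC 1 or 3 (0.0809 to 0.156). In LMPP, Chil5 lost it without adult LMPP 1 (0.0616) and Olfm1 without fetal LMPP 3 (0.0535) or adult LMPP 1 (0.0574).

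Lair1, an inhibitory collagen receptor of leukocytes, was lower in both. It had 3.15 and 1.85 CPM in fetal HSC and 1.39, 1.63 and 0.510 CPM in fetal LMPP, against 40.6, 42.7 and 33.1 CPM in adult HSC and 36.9, 46.4 and 36.2 CPM in adult LMPP. The log2 fold change was -3.96 ± 0.46 in HSC and -5.06 ± 0.41 in LMPP (adjusted p = 0.000801 and 4.79e-05), with a member 17.5 kb upstream. Car3, a carbonic anhydrase, averaged 0.965 and 1.62 CPM, against 9.05 and 9.02 CPM. Glipr1 averaged 25.1 and 80.3 CPM, against 93.7 and 182 CPM, and Smim14 77.2 and 83.3 CPM, against 200 and 302 CPM. A RefSeq promoter window of Smim14 also overlapped a shared fetal region. Sdr42e1, a putative dehydrogenase, averaged 3.25 and 2.76 CPM, against 15.8 and 8.41 CPM. Hdac11, a histone deacetylase with 2 members, averaged 2.41 and 0.610 CPM, against 9.03 and 5.11 CPM. Each passed in both comparisons. In HSC the Sdr42e1 call was lost without fetal HSC 2 (0.0681) and the Smim14 call without fetal HSC 1 (0.188) or 2 (0.23). Hdac11 lost its HSC call without fetal HSC 1 or 2, fetal LMPP 3, adult HSC 2 or 3, or adult LMPP 1 or 2 (0.0512 to 0.308).

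Pisd-ps1, a pseudogene, also fell in both, but its 2 members had the weakest peaks of the set, with signal values of 1.60 and 1.71 in fetal HSC and 1.502 and 1.57 in fetal LMPP, and 29 regions were nearest to it. It lies among near-identical copies, so both its peaks and its counts are uncertain. Its RNA averaged 28.5 and 10.6 CPM in fetal HSC and LMPP, against 56.5 and 54.4 CPM in adult HSC and LMPP. The HSC call was lost without fetal HSC 1 (0.146) or 2 (0.0679).

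Several known fetal regulators rose although none was the nearest gene of a shared fetal region. Lin28b, which blocks let-7 miRNAs, averaged 25.3 and 36.9 CPM in fetal HSC and LMPP, against 0.379 and 0 CPM in adult HSC and LMPP, and its start had peaks of all 4 lists. The same held for the chromatin protein genes Hmga1 (594 and 906 CPM, against 153 and 208 CPM) and Hmga2 (120 and 206 CPM, against 2.89 and 11.8 CPM), and for the inhibitors of basic helix-loop-helix factors Id1 (34.5 and 32.3 CPM, against 2.29 and 0.317 CPM) and Id3 (42.0 and 61.5 CPM, against 0.512 and 0.847 CPM). Igf2bp2 averaged 222 and 117 CPM, against 15.6 and 2.71 CPM, with an adult HSC peak beside both fetal ones at its start. Of the regions within 100 kb of these 6 starts, 1 was a member, near Id3. All 6 genes passed in both comparisons (adjusted p up to 0.00131). Runx1, Gata2, Meis1 and Kit, stem cell regulators, had no member and did not pass in either. Without the 3 libraries that stand apart, Gata2, Meis1 and Kit fell in HSC (0.0404, 0.00959 and 0.00379) and Meis1 in LMPP (0.000684). Meis1 also passed in LMPP without adult HSC 3 (0.0324) or adult LMPP 3 (0.0286), or with DESeq2 (0.031). Dntt, the terminal transferase of antigen receptor assembly, was at 0 in all fetal LMPP libraries, against 1167, 1182 and 1694 CPM in adult LMPP, and had neither a member nor a peak at its start in any list. Sox17, an endothelial and fetal HSC factor, had 1 member 42.6 kb downstream. It stood at 0.708 and 0.878 CPM in fetal HSC and 0.0888 to 0.467 CPM in fetal LMPP, against 0 in all adult libraries (adjusted p = 0.0582 and 0.0697), and passed in HSC without the 3 libraries that stand apart (0.0392) or with DESeq2 (0.0158).

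By gene list, members were few. Of 25124 genes, 960 (3.82%) were tied to a shared fetal region by either rule. Among 22 fetal regulators 3 were tied (Igf2bp1, Igf2bp3 and Sox17), of which 2 were higher in both comparisons; 9 and 12 of 19 tested regulators were higher in fetal HSC and fetal LMPP. Among 58 hematopoietic transcription factors 2 were tied. Ebf1, the B cell factor, had 5.88, 8.35 and 7.22 CPM in fetal LMPP, against 1.01, 0.784 and 0.655 CPM in adult LMPP (log2 3.13 ± 0.77, adjusted p = 0.0278), with a member 47.3 kb inside. Its call was lost without any 1 LMPP library of either age (0.0518 to 0.0876), and in HSC, where it was at 0 and 0.268 CPM in fetal and 0 in adult libraries, it passed only without fetal HSC 1 (0.0199) and with DESeq2 (0.00748). Of 23 imprinted genes 1 was tied, Meg3, a maternally expressed RNA, which was higher in fetal LMPP at 0.296 to 1.27 CPM, against 0 to 0.056 CPM in adult LMPP (adjusted p = 0.00346). In HSC it averaged 24.8 and 12.2 CPM in fetal and adult cells (adjusted p = 0.347). The imprinted list does not hold every imprinted gene: Gnasas1 of the imprinted Gnas locus, described above with a member at its start, is not on it.

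Among 25 antigen presentation genes 1 was tied (Tap2), while 21 and 22 of 25 tested were lower in fetal HSC and fetal LMPP. Of 45 interferon response genes 1 was tied, Sp110, with 106 and 131 CPM in fetal HSC and LMPP, against 119 and 153 CPM in adult HSC and LMPP, and it did not pass. The tied gene of 30 megakaryocyte genes was Gp5, a platelet glycoprotein, with 24.97 and 12.0 CPM in fetal HSC, against 135, 61.0 and 98.0 CPM in adult HSC (adjusted p = 0.107). It passed without adult LMPP 1 (0.0402), without the 3 libraries that stand apart (0.0224), with only the 2 groups compared (0.0492) and with DESeq2 (0.014). Among 24 myeloid genes the tied one was Fcer1g, and among 25 cell cycle genes Cdk6 and Mki67, and these did not pass. Mki67, a marker of cycling cells, averaged 91.7 and 160 CPM in fetal and adult LMPP (adjusted p = 0.0574) and passed without fetal HSC 1 or 2, fetal LMPP 2 or adult HSC 3 (0.0356 to 0.0495), or with DESeq2 (0.0201). Of 11 macrophage markers 1 was tied, Marco, at under 1 CPM throughout, which passed only without the 3 libraries (0.0452 in HSC and 0.0162 in LMPP). None of the 25 erythroid, 33 cytokine receptor and 24 ribosome biogenesis genes on these lists was tied to a shared fetal region. The lists do not hold every gene of a class. Il5ra, a cytokine receptor gene outside its list, had a member at its start. Rrp15, a ribosome biogenesis gene outside its list, was nearest to a member 31.0 kb upstream and was higher in fetal LMPP (edgeR adjusted p = 0.036).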

How the data were processed

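Gene values are expected counts over exons, deposited by the authors without normalization and made with HOMER on mm10 per the file headers, in steps of 0.5 (22.5% of values not whole), and were rounded. Library chemistry keeps no strand, so overlapping, antisense and near-identical genes can share reads. Peaks are 1 list per group in mm10: the deposited score, the signal value given by the authors' caller and the deposited −log10 p were taken as given, and used only within a list. How the final lists combined the replicates is not stated in the labels. The submitters' processing notes name, without roles, MACS2, SAMtools 1.9 and Bowtie2 2.3.5 among other tools.

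Distinct peaks were merged where they shared 1 bp. Genes were tied to a region by a start within 1 kb, or by the nearest start to its centre within 100 kb. Counts were tested in R 4.3.3 with edgeR 4.0.16 (filterByExpr, TMM, quasi-likelihood fit of the 4 groups over 11 libraries, Benjamini-Hochberg adjusted p under 0.05), which kept 14720 genes with a biological coefficient of variation of 0.372, and was tested on simulated data. All adjusted p are from edgeR unless named. Accessibility, with 1 list a group, has no replicate spread and no test. CPM are counts scaled to TMM library sizes. Alternatives were DESeq2 1.42.0, other filters, the 2 groups alone, a replicate block, each library left out, and other peak thresholds.

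Named genes were the 8 with most members, up to 8 in each direction called in both comparisons with at least 5 CPM and no overlap, 15 fixed genes and up to 3 per list; every called gene with a member at its start is named as well. A few genes under these rules are not reported here. Regions, genes and 20 lists were chosen with earlier results of these data known. Promoter and miRNA sequences are from RefSeq, GRCm38.p6.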

Additional observations from a re-analysis of the deposited data

Results flagged for a closer look

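The fetal against adult difference itself differed between LMPP and HSC (edgeR interaction, adjusted p under 0.05) for 5 named genes, given as the log2 difference in LMPP minus that in HSC. For Postn the value was -10.84 (adjusted p = 0.000763), with adult HSC at 0 in every library, so the fitted size depends on the prior count. Jam3 had 2.44 (0.0249), Pisd-ps1 -1.37 (0.0209), Id1 2.81 (0.0222) and Flt3 -2.11 (0.00702). Flt3 averaged 492 CPM in fetal LMPP, against 974 CPM in adult LMPP, and 29.0 CPM in fetal HSC, against 13.4 CPM in adult HSC. Id1 and Flt3 are not tied to a shared fetal region.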

How the results depend on the processing

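The number of shared fetal regions fell to 831 at an IDR of 0.05 in the fetal lists and to 230 with only peaks of the upper 50% by signal, and the share at gene starts was 11.03% at that IDR in all 4 lists and 6.96% for the upper 50%. Counts given as higher and lower in fetal HSC, then higher and lower in fetal LMPP, were 17, 15, 58 and 44 for nearest genes. They were 10, 6, 29 and 17 at the IDR of 0.05 in fetal lists, 4, 1, 7 and 4 for the upper 50%, 45, 49, 89 and 80 without the 3 libraries that stand apart (chosen after seeing the data), and 40 and 31 in HSC with DESeq2. In HSC, DESeq2 called 7.86% higher and 6.09% lower of the nearest genes tested, against 4.43% and 6.10% of all genes. At the IDR of 0.05 in all lists 9 were lower in HSC and 29 in LMPP. For genes at starts the counts were 5, 2, 13 and 6. They were 3, 0, 4 and 0 for the upper 50%, which left 16 regions at starts, where the full set had 134. With the IDR of 0.05 in all lists, which left 129 regions at starts, 8 were higher in HSC. DESeq2 called 9 of 69 tested genes at starts higher in HSC (13.043%), against 4.43% of all genes. Without the 3 libraries 11 were higher in HSC and 20 in LMPP. Lower genes at starts were 0 in HSC at the IDR of 0.05 in fetal lists or all lists, and 2 in LMPP under each. Leaving out 1 library gave 8 to 18, 5 to 18, 30 to 73 and 30 to 52 for nearest genes, and 4 to 6, 0 to 2, 7 to 16 and 3 to 6 at starts. Shares of all genes then ran, in the same order, from 0.681% to 2.27%, 0.714% to 3.3%, 3.82% to 10.9% and 5.09% to 10.8%. Causes were not tested, but stricter lists hold fewer regions by construction. The numbers of genes tested under the stricter peak lists are not given here. Their counts therefore cannot be read as shares, and a lower count is not a weaker result.

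Pairing by replicate number was checked only between fetal and adult libraries of a cell type. Their deviations from the group mean correlated at 0.060 and 0.097 in HSC and between -0.167 and 0.081 in LMPP. HSC and LMPP libraries of the same number were not compared, so pairing of those is not settled. Adult HSC 3 and adult LMPP 3 were both among the libraries that stand apart. With the replicate block, genes at starts were 5 higher and 2 lower in HSC and 11 higher and 4 lower in LMPP. These were 7.35%, 2.94%, 16.2% and 5.88% of those tested, against 1.62%, 2.15%, 6.57% and 7.55% of all genes. The block ended the LMPP calls of 4933406C10Rik, Cald1, Ebf1, Rbp4 and Tgif1 and the HSC call of Hdac11. With only the 2 groups compared, the LMPP call of 5730507C01Rik and the HSC calls of Flt3, Hdac11, Pisd-ps1, Smim14 and Tmem238 ended. Of 67 called differences of named genes, 42 held under every alternative run on the counts; over all 1887 gene alternatives 102 ended a call, 39 made one and 0 reversed. Depth limits values near 0.0498 to 0.152 CPM, and 1 list per group leaves accessibility without error.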
